A study of Homo sapiens with 6 samples.

Results

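The 10 genes described here are the calcium channels, calcium sensors and the calcium pump named for prostate epithelium, taken by their symbols from the 55765 gene symbols of the count data, in which all 10 were present. They are TRPM8, TRPV6 and TRPM4 of the TRP channel family, the store-operated channel subunits ORAI1, ORAI2 and ORAI3 with their sensors STIM1 and STIM2, the voltage-gated channel subunit CACNA1D, and the pump ATP2B1. The rule uses their names and no measured value, though the genes were proposed with earlier results of these data known. RNA-Seq was done on C4-2 cells, a castration-resistant prostate cancer (CRPC) subline of LNCaP, to learn which mRNAs respond to androgen. The SAL group was treated with the androgen R1881 (methyltrienolone) at 1 nM, a supraphysiological androgen level, and the control group with the solvent DMSO, each for 72 h in DMEM, with growth in medium holding 5% FBS. There were 3 libraries of total RNA per group, numbered 1 to 3 in both, all from the same tumor cell line without genetic change. The counts of genes were 7864471 to 12532355 per library, and 6931042 to 9776990 remained after rRNA genes were removed.

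Free calcium in the cytosol is kept far below its level outside the cell and in the endoplasmic reticulum, and channels open to let it in while pumps move it out. When the endoplasmic reticulum is emptied, the STIM proteins in its membrane sense the loss and open ORAI channels in the plasma membrane, which is called store-operated calcium entry. In prostate epithelium the cold- and menthol-sensitive channel TRPM8 is known as an androgen-regulated gene, and TRPV6 as a calcium-selective channel found in prostate tumors.

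The promoters of the 4 members that passed the test of SAL against DMSO are shown first, to set their sequences beside their changes. Each is the RefSeq window from 250 bases before to 50 bases after a transcription start, taken from the GRCh38.p14 annotation and placed by exact match on GRCh37, the assembly of hg19 used for the counts. Capitals mark the hexamer AGAACA, the core unit of the androgen response element, searched on both strands. The windows lie at chr2:234825768-234826067 (plus strand) for TRPM8, chr19:49660799-49661098 (plus) for TRPM4, chr11:3875584-3875883 (plus) for STIM1 and chr12:90103094-90103393 (minus) for ATP2B1, and each is written along the strand of its gene.
TRPM8: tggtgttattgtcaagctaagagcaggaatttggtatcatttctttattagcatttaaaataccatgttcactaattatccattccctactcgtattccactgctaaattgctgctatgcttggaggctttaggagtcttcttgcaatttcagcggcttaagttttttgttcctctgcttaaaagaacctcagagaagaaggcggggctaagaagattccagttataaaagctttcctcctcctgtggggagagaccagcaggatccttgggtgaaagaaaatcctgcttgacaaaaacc
TRPM4: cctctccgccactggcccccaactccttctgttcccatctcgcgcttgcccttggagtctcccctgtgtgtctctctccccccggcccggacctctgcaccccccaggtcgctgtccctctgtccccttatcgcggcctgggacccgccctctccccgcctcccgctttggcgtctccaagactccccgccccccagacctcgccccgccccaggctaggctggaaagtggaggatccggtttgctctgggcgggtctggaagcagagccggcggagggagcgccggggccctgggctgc
STIM1: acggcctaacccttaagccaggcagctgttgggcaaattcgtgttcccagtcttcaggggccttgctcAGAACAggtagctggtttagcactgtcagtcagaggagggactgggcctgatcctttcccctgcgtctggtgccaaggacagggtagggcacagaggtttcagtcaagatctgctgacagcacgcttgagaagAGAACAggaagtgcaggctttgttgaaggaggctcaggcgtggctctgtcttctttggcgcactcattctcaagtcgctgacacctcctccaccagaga
ATP2B1: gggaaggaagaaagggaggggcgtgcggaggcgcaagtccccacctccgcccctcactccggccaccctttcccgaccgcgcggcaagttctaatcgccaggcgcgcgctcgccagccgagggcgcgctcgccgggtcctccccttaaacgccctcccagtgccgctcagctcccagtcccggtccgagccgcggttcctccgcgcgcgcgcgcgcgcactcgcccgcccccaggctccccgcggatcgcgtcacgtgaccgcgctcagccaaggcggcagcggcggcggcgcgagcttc
The windows shown are those nearest to the annotated start of each gene. That of STIM1 held 2 such hexamers, whereas those of TRPM8, TRPM4 and ATP2B1 held none, and the other 3 STIM1 windows, at starts further downstream with a GC content of 69.0 to 80.0%, held none either. Their GC content differed widely, with 41.0% in the TRPM8 window, 55.7% in the STIM1 window shown, 71.0% in that of TRPM4 and 75.3% in that of ATP2B1. Over 9 of the 10 genes, for which RefSeq gave 18 windows, 3 windows held the hexamer, the others being the window of TRPV6 and an inner start of TRPM8. The hexamer stood in 14.8% of all 35116 promoter windows of that length. The full element, the hexamer followed after 3 bases of any kind by its inverted copy, stood in 0 of the 18 windows and in 1 of the 35116. These matches describe letters in short windows and do not show that anything binds there.

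Of the 10 genes, 3 were up-regulated by SAL, 1 was down-regulated and 6 did not pass the test. TRPM8, TRPM4 and STIM1 rose and ATP2B1 fell. A gene was called a differentially expressed gene (DEG) at an adjusted p under 0.05 in the quasi-likelihood test of edgeR with the replicate number as a block, which compares SAL with DMSO inside each pair of libraries of the same number. By the same rule 20.8% of all 16835 genes tested were called, 11.5% up and 9.37% down, so a count of 4 in 10 genes stands against a frequent background. The median log2 fold change was 0.12 over the 10 genes and -0.0011 over all genes tested, and 6 of the 10 were higher and 4 lower. The count depended on the fit. Without the block, edgeR called 0 of the 10 genes and 21 genes in all (0.125%), and only TRPM8 had an unadjusted p under 0.05, which was 0.027. DESeq2 with the block called 3 of the 10 (13.3% of all genes). Without replicate 1 and without replicate 2, edgeR called 5 of the 10 each time (26.3% and 17% of all genes), but without replicate 3 it called 2, TRPM8 and TRPM4 (7.26%). With a minimum absolute log2 fold change of 1 added, TRPM8 alone was called (5.26%). In these bulk libraries, fewer cells expressing a gene and less of its RNA per cell cannot be told apart.

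The reason the block matters is visible in the levels themselves. The replicate number took a median of 86.4% of the variation of the log2 level over the 6 libraries for the 10 genes and 85.4% for all genes tested, and the treatment took 11.5% and 5.88%. In both groups replicate 2 was the highest and replicate 1 the lowest for TRPV6, TRPM4, ORAI1, ORAI2, ORAI3 and STIM1. ATP2B1 went the other way, with replicate 2 the lowest in both groups, and STIM2 and CACNA1D were highest in replicate 3 and lowest in replicate 1. TRPM8 was the exception, with 14.4% of its variation on the replicate number and 79.4% on the treatment. What separated the replicate numbers was not tested. Beside these differences, rRNA genes took 11.9 to 27.8% of the gene counts. Reads that matched no annotated exon, whether inside or outside genes, took 24.0 to 48.3% of the reads tallied.

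**Figure D1:**
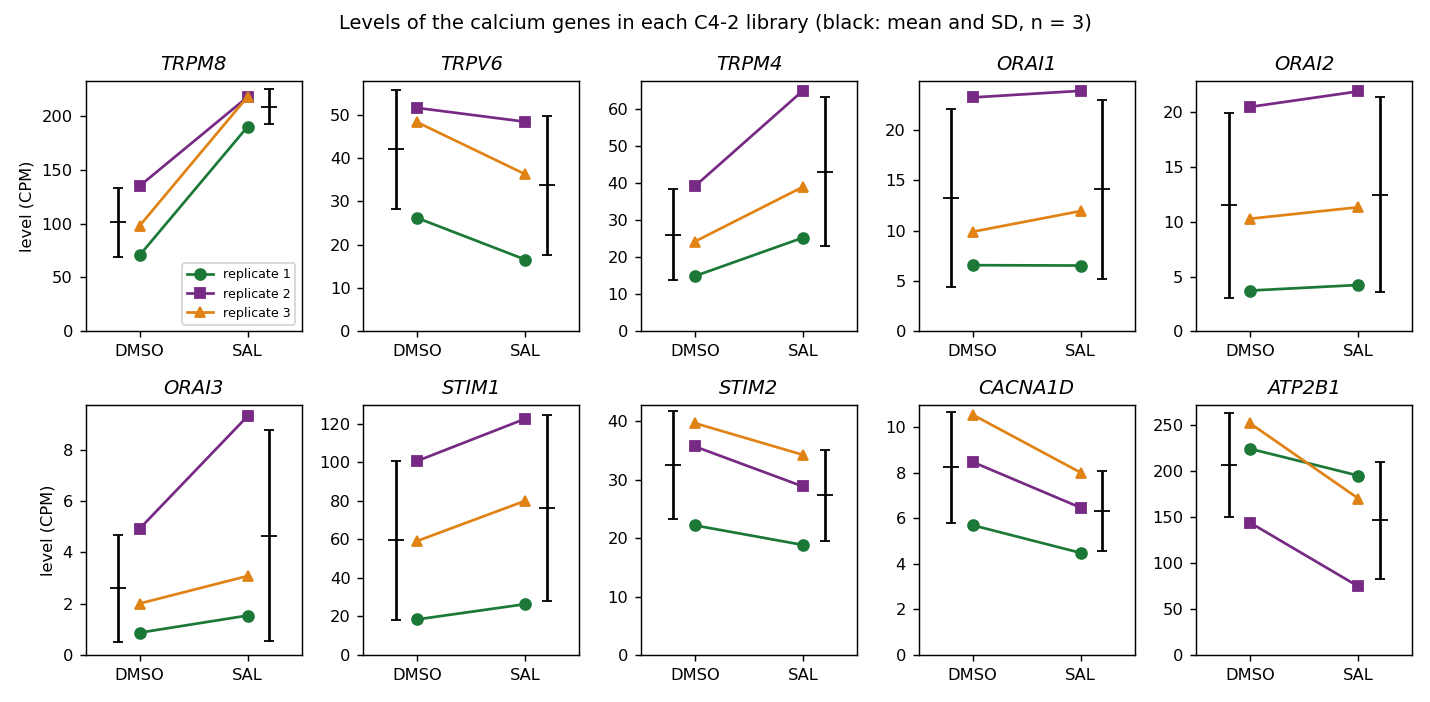
Level of each of the 10 genes in CPM (the count relative to the scaled library size, linear axes from 0), with a point for each C4-2 library, a line joining the DMSO and SAL libraries of the same replicate number, and black bars for the mean and SD of 3 libraries. TRPM8 is the gene whose SAL libraries, from 190 to 218 CPM, all lie above its DMSO libraries, which end at 135 CPM.

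TRPM8 (chr2:234826018-234928166, plus strand), the cold- and menthol-gated cation channel, more than doubled its level. In CPM, the read count of a gene relative to the scaled library size, it stood at 70.6, 135 and 98.1 in DMSO replicates 1, 2 and 3, from 570, 988 and 734 counts, and at 190, 218 and 218 in SAL, from 1487, 1989 and 1772 counts. Every SAL library was above every DMSO library, which held for TRPM8 alone of the 10 genes, and the SAL libraries were closer to each other than the DMSO libraries. Non-overlapping groups with SAL above were found for 3.78% of all genes tested. The mean level was 101 ± 32.4 CPM with DMSO and 209 ± 16.0 CPM with SAL (SD, n = 3), and the fitted fold was 2.12, a log2 fold change of 1.09 ± 0.13 (SE, edgeR adjusted p = 4.35e-05). The change was 1.43, 0.69 and 1.15 on the log2 scale in pairs 1, 2 and 3. It was smallest in pair 2, whose DMSO library was the highest, but the DMSO level itself enters this difference. Among all genes tested, 2.90% had a smaller adjusted p and 4.98% a larger absolute log2 fold change.

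TRPM4 (chr19:49660998-49715093, plus strand) is a monovalent cation channel that calcium opens from inside the cell, so it passes on a calcium signal as a change of membrane voltage rather than carrying calcium. Its level was 14.9, 39.1 and 24.2 CPM in DMSO and 25.2, 64.9 and 38.9 CPM in SAL, from 120 to 592 counts. The groups overlapped, since the spread between replicate numbers was 2.63-fold in DMSO, yet SAL was above DMSO in each pair by nearly the same factor. The pairs differed by 0.75, 0.73 and 0.68 on the log2 scale, the fitted log2 fold change was 0.73 ± 0.11 (SE), a fold of 1.65, and the edgeR adjusted p was 0.000293. The call held in each of the 11 other fits that kept the block, but not with a minimum absolute log2 fold change of 1.

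TRPV6 (chr7:142568961-142583490, minus strand), a constitutively active and highly calcium-selective channel, had lower values in SAL but did not pass the test. It stood at 26.1, 51.6 and 48.2 CPM in DMSO and at 16.5, 48.4 and 36.2 CPM in SAL, from 129 to 441 counts. Each SAL library was below its own DMSO library, by as little as 0.09 on the log2 scale in pair 2 and by 0.65 in pair 1, and the groups overlapped. The log2 fold change was -0.36 ± 0.13 (SE, 95% interval -0.63 to -0.10 without adjustment), with an edgeR adjusted p of 0.0517. It passed in 5 of the 11 other fits with the block, with an adjusted p of 0.0203 without replicate 2. Its close relative and neighbour on the chromosome, the kidney channel TRPV5, had 0 to 6 counts in the libraries and was not tested.

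**Figure D2:**
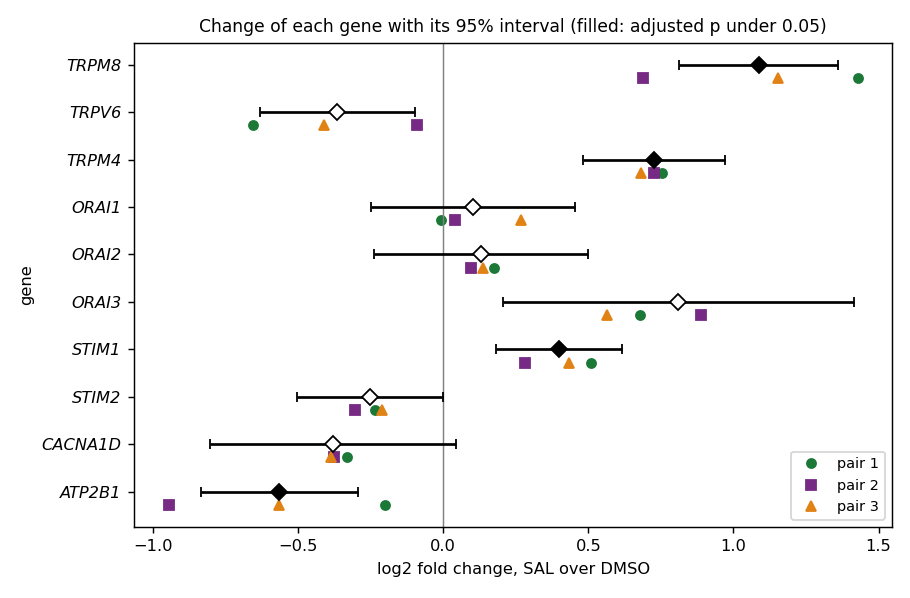
Log2 fold change of SAL over DMSO for each gene (diamond, filled at an adjusted p under 0.05) with its 95% interval, and the difference within each pair of libraries of the same replicate number below it. The 3 pair values of TRPM4 lie within 0.68 to 0.75, whereas those of TRPM8 reach from 0.69 to 1.43 and those of ATP2B1 from -0.95 to -0.20.

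Of the store-operated entry genes, the sensor STIM1 rose and the sensor STIM2 and the channel subunits did not pass the test. STIM1 (chr11:3875757-4114440, plus strand), which on store depletion gathers and opens the ORAI channels, had 18.5, 101 and 59.2 CPM in DMSO and 26.4, 123 and 80.1 CPM in SAL, from 149 to 1119 counts. Replicate 2 was 5.46-fold above replicate 1 within DMSO, far more than SAL was above DMSO, and the groups overlapped, but each SAL library was above its DMSO library. The pairs differed by 0.51, 0.28 and 0.43 on the log2 scale, and the log2 fold change was 0.40 ± 0.10 (SE), a fold of 1.32, with an edgeR adjusted p of 0.0107. The call was lost with DESeq2 in place of edgeR (adjusted p = 0.0572) and in edgeR without replicate 3 (adjusted p = 0.219).

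STIM2 (chr4:26859223-27027003, plus strand), the paralogue that senses smaller falls of store calcium, had 22.2, 35.7 and 39.7 CPM in DMSO and 18.8, 28.8 and 34.3 CPM in SAL. All pairs were lower in SAL, by 0.21 to 0.31 on the log2 scale, a shift smaller than the spread between replicate numbers, and the groups overlapped. The log2 fold change was -0.25 ± 0.12 (SE, edgeR adjusted p = 0.154). As a share of the summed STIM level per kilobase of exon, STIM1 made up 36.4, 66.0 and 50.6% in DMSO and 49.1, 74.5 and 61.7% in SAL. The STIM1 share was thus higher in SAL in each pair, by a mean of 10.7 percentage points (8.52 to 12.7), and the exact permutation test over pairs gave a two-sided p of 0.25, the smallest that 3 pairs allow. The share itself depended on the length taken. With the longest transcript it was 46.7, 74.9 and 61.1% in DMSO and 59.6, 81.8 and 71.1% in SAL, with a mean difference of 9.94 percentage points.

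ORAI1 (chr12:122064414-122081124, plus strand), the pore subunit of the classical store-operated channel, had 6.57, 23.2 and 9.89 CPM in DMSO and 6.53, 23.9 and 12.0 CPM in SAL. These levels were nearly alike within pairs 1 and 2, while replicate 2 was 3.54-fold above replicate 1 in DMSO and 3.66-fold in SAL. The log2 fold change was 0.10 ± 0.16 (SE), with a 95% interval of -0.25 to 0.45 and an edgeR adjusted p of 0.723. ORAI1 was the only one of the 10 genes whose pairs did not all point the same way, which 51.2% of all genes tested did.

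ORAI2 (chr7:102073553-102097272, plus strand), a paralogue that can join ORAI1 in mixed channels, had 3.72, 20.5 and 10.3 CPM in DMSO and 4.23, 21.9 and 11.3 CPM in SAL. The groups overlapped almost completely, with a log2 fold change of 0.13 ± 0.17 (SE, 95% interval -0.24 to 0.50, edgeR adjusted p = 0.659). Of its exon length, 5.29% is shared with ALKBH4 on the other strand, where reads cannot be assigned without strand.

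ORAI3 (chr16:30960389-30967782, plus strand), the paralogue that also takes part in channels opened without store depletion, was the least counted of the 10 genes, with 7, 36 and 15 counts in DMSO and 12, 85 and 25 in SAL. In CPM these were 0.87, 4.92 and 2.00 in DMSO and 1.54, 9.32 and 3.08 in SAL. Each SAL library was above its DMSO library, by 0.56 to 0.89 on the log2 scale, but the groups overlapped and the test was just missed, at a log2 fold change of 0.81 ± 0.28 (SE, 95% interval 0.21 to 1.41 without adjustment, edgeR adjusted p = 0.0558). In a newer annotation than the one used for counting, 52.9% of its exon length overlaps a long noncoding RNA on the same strand, so its count is uncertain. Within the summed ORAI level per kilobase, the ORAI3 share was 11.1, 15.7 and 14.7% in DMSO and 17.9, 25.4 and 18.3% in SAL, and that of ORAI1 was 77.7, 68.8 and 67.3% in DMSO and 70.5, 60.4 and 65.8% in SAL. ORAI1 remained the leading paralogue in all 6 libraries, and the mean difference of 6.68 percentage points for ORAI3 had an exact permutation p of 0.25, again the smallest possible.

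**Figure D3:**
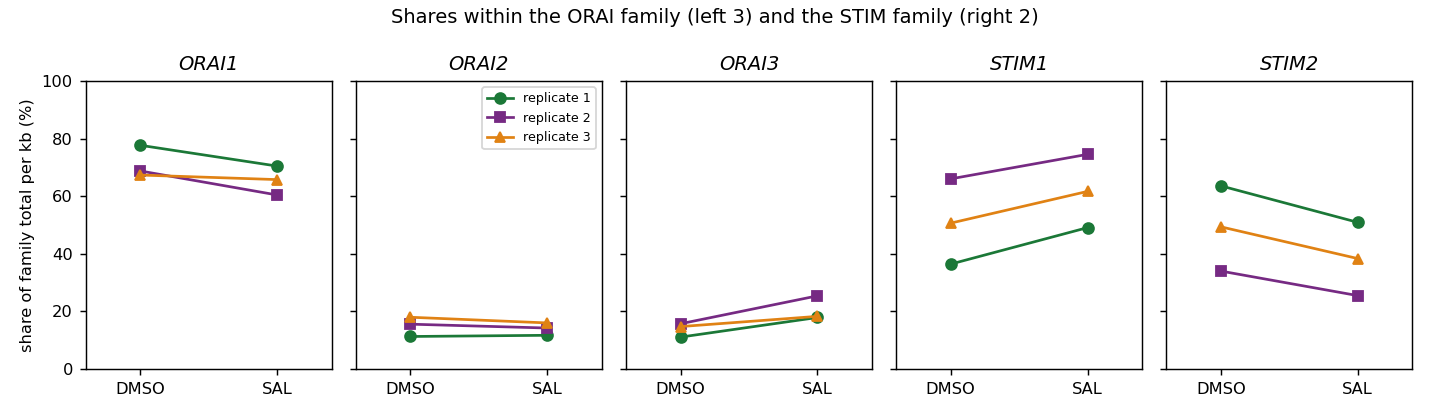
Share of each paralogue in the summed level per kilobase of exon of its family, in percent, for each library, with lines joining libraries of the same replicate number. The STIM1 share is higher in SAL in all 3 pairs, from 36.4 to 49.1% in pair 1, and ORAI1 holds at least 60.4% of the ORAI total in every library.

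CACNA1D (chr3:53362990-53847760, plus strand) encodes the pore subunit of the L-type voltage-gated channel Cav1.3. Its mean per kilobase of all exons was the lowest of the 10 genes. With the longest transcript as the length its mean was still the lowest, but ORAI2 was above it in only 1 of 3 DMSO libraries. CACNA1D had 46, 62 and 79 counts in DMSO and 35, 59 and 65 in SAL, or 5.70, 8.48 and 10.6 CPM against 4.48, 6.47 and 8.01 CPM. The 3 pairs differed by the similar amounts of -0.33, -0.38 and -0.39 on the log2 scale, and the groups overlapped. The log2 fold change of -0.38 ± 0.20 (SE) did not pass the test, with an interval of -0.80 to 0.04 and an edgeR adjusted p of 0.204. Of its exon length, 7.29% is shared with CHDH on the other strand. The other L-type pore genes, CACNA1C, CACNA1F and CACNA1S, had at most 15 counts in any library and were not tested.

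ATP2B1 (chr12:89981826-90103143, minus strand), the plasma membrane calcium ATPase that pumps calcium out of the cell, was the member that fell. It stood at 224, 143 and 251 CPM in DMSO and at 195, 74.3 and 170 CPM in SAL, from 678 to 1881 counts. SAL was lower in each pair, strongly in pair 2 and weakly in pair 1, and the groups overlapped because replicate 2 was low in both. The pairs differed by -0.20, -0.95 and -0.57 on the log2 scale, the mean went from 206 ± 56.1 to 146 ± 63.5 CPM (SD, n = 3), and the log2 fold change was -0.56 ± 0.12 (SE, edgeR adjusted p = 0.00569). Without replicate 3 the adjusted p was 0.102. Of the other pumps of this family, ATP2B4 had 99.8 CPM in DMSO and 103 CPM in SAL (log2 fold change 0.05, edgeR adjusted p = 0.769), and ATP2B2 and ATP2B3 had at most 3 counts in any library and were not tested.

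Levels of different genes were compared per kilobase of exon. In DMSO the pump ATP2B1 led with 21.7 ± 5.89 CPM per kilobase, followed by TRPM8 with 12.8 ± 4.08 (SD, n = 3), and these overlapped. The 3 TRPM8 libraries were clear of the next gene, STIM1, at 4.94 ± 3.42, though not when the longest transcript was taken as the length. A middle group of STIM1, ORAI1, TRPM4, STIM2 and TRPV6 lay between 4.94 and 3.53 CPM per kilobase without separation between neighbours, and TRPV6 was clear of ORAI2 at 1.04 ± 0.76. ORAI2, ORAI3 and CACNA1D, the last at 0.429 ± 0.13, closed the order with overlapping ranges. By the means, TRPM8 and ATP2B1 exchanged the first places in SAL, at 26.4 ± 2.02 and 15.4 ± 6.67 CPM per kilobase. No SAL library of ATP2B1 reached a level of TRPM8. In DMSO replicate 2, TRPM8 was already above ATP2B1, at 17.0 against 15.1 CPM per kilobase. The order depends on the exon length taken, and with the longest transcript in place of all exons 6 of the 10 genes kept their rank in DMSO.

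**Figure D4:**
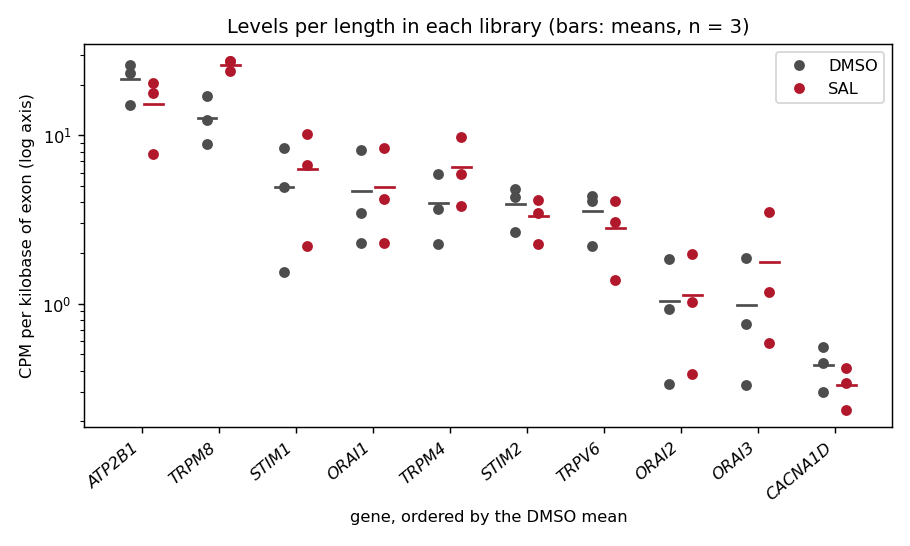
Level of each gene in CPM per kilobase of exon (log axis) in each library, DMSO in grey and SAL in red, with bars for the means of 3 libraries and genes ordered by the DMSO mean. The mean of TRPM8 is below that of ATP2B1 in DMSO and above it in SAL, at 26.4 against 15.4 CPM per kilobase. CACNA1D has the lowest mean in both groups.

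The wider calcium machinery was described with a list of 117 other genes, of which 71 passed the filter on low counts and 46 did not, the latter with at most 16 counts in any library. Of the 71, SAL raised 16 (22.5%, against 11.5% of all genes tested) and lowered 4 (5.63%, against 9.37%, but 8 with a correction for GC content and length, against 13.5%), and 51 did not pass the test. The median of the 71 was 0.05 on the log2 scale. The 20 calls became 13 without replicate 2 and 6 without replicate 3, while the share called over all genes went from 20.8% to 17% and 7.26%. Regulators of store-operated entry had 3 of 5 genes up and none down. SARAF, which slows and shuts off store-operated entry, went from 270 ± 41.1 to 507 ± 119 CPM (log2 fold change 0.89, edgeR adjusted p = 5.00e-06) without overlap of the groups. CRACR2B, a calcium-binding protein of the store-operated channel complex, went from 23.5 ± 14.8 to 48.9 ± 30.9 CPM (log2 fold change 1.06, edgeR adjusted p = 8.91e-06) with SAL above DMSO in each pair. TMCO1, a channel that releases calcium from overfilled stores, was the third to rise, chosen for mention after its value was seen.

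Proteins that bind calcium inside stores or cytosol had 5 of 9 tested genes up and none down, beside 11.5% up and 9.37% down over all genes tested. The store protein CALU went from 240 ± 52.9 to 394 ± 64.3 CPM (log2 fold change 0.72, edgeR adjusted p = 3.35e-05), with every SAL library above every DMSO library. Among sensors and effectors, 4 of 21 were up and 3 down, not far from those shares. The kinase kinase CAMKK2, a known androgen target in prostate cancer that calmodulin activates, had the largest change of the list, from 30.7, 139 and 66.9 CPM in DMSO to 98.5, 413 and 242 CPM in SAL (log2 fold change 1.70 ± 0.10, edgeR adjusted p = 9.14e-09). CAMK2D, a subunit of the calmodulin-dependent kinase II, fell from 43.2 ± 5.69 to 18.6 ± 2.86 CPM (log2 fold change -1.21, edgeR adjusted p = 5.38e-06), and its groups did not overlap. The vitamin D receptor VDR, which controls calcium uptake genes, fell as well (log2 fold change -0.64, edgeR adjusted p = 0.00119), as did the calcineurin regulator RCAN3 (-0.47, edgeR adjusted p = 0.00368).

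The remaining channel and pump groups held 4 calls, each group with at most 1 in a direction, against 11.5% up and 9.37% down over all genes tested, so these small counts set none of the groups apart. Of 8 tested TRP and related channels, 1 was up and none down. Of 5 tested voltage-gated subunits, 1 was up, the T-type pore gene CACNA1H, with 2, 27 and 8 counts in DMSO and 11, 90 and 32 in SAL (log2 fold change 1.66 ± 0.32, edgeR adjusted p = 0.00145). Of 8 tested pumps and exchangers, 1 was up and 1, the secretory pathway pump ATP2C2, was down (log2 fold change -0.53, edgeR adjusted p = 0.0231).

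**Figure D5:**
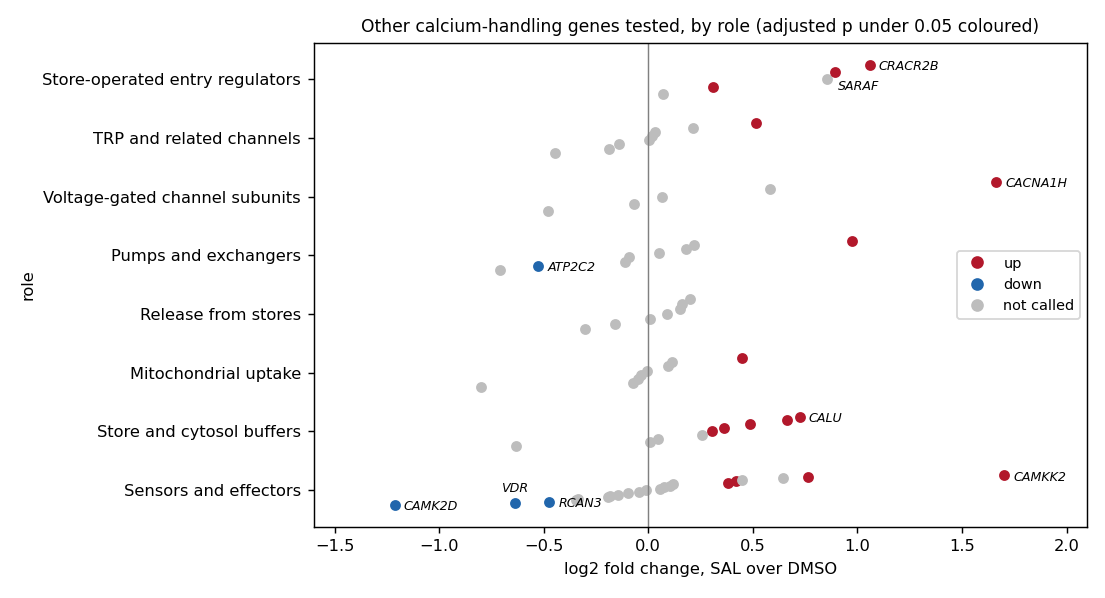
Log2 fold change of SAL over DMSO for the 71 tested genes of the wider calcium list, in rows by role, red for up, blue for down and grey for not called at an adjusted p under 0.05. Named genes are those given in the text by the rule of smallest adjusted p. CAMKK2, at 1.70, lies furthest to the right and CAMK2D, at -1.21, furthest to the left.

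The cells were checked against markers. All 9 luminal prostate markers listed were above 1 CPM in every library, and their sum was 2735 to 5225 CPM in DMSO and 5006 to 10253 CPM in SAL. KLK3, which encodes PSA and is the classical androgen-induced gene, stood at 587, 1200 and 612 CPM in DMSO and at 1482, 2535 and 1411 CPM in SAL (log2 fold change 1.21, edgeR adjusted p = 3.33e-07), so SAL was above DMSO in all libraries. The 3 basal markers summed to at most 0.372 CPM in any library, with KRT5 at 0. The 5 stromal markers summed to 4.09 to 11.9 CPM in DMSO and 13.3 to 17.0 in SAL, with COL1A2 at 0 in all libraries and COL1A1 and ACTA2 above 1 CPM in every library, and ACTA2 rose (log2 fold change 2.61, edgeR adjusted p = 6.63e-06). The 4 neuroendocrine markers summed to 3.96 to 12.2 CPM in DMSO and 4.48 to 8.22 in SAL. Of these, SYP and ENO2 were above 1 CPM in every library. Of the 2 endothelial and blood markers PTPRC was at 0 and the sum was at most 3.84 CPM. The part of these marker changes in the results on the 10 genes was not tested.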

How the data were processed

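Total RNA of C4-2 cells was sequenced in 6 libraries, 3 DMSO and 3 SAL. Per the paper's methods and the submitters' processing notes, reads were mapped to hg19 with TopHat2 2.1.0 and counted per gene with HTSeq 0.11.2 without strand, and the deposited values are raw counts, not normalized. Reads that HTSeq assigned to no gene were kept out of library sizes. The LNCaP libraries were not analysed here.

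From the counts, 523 rRNA symbols were removed. The filter filterByExpr left 16835 genes, with all 10 members, and edgeR 4.0.16 in R 4.3.3 gave the quasi-likelihood test of the treatment with TMM, the replicate number as a block, robust dispersions and Benjamini-Hochberg adjustment over all genes tested. The block follows the paired test of the paper's methods, and same-numbered libraries deviated together (correlations of 0.89, 0.86 and 0.74 over genes). The labels do not say that the libraries of a group came from separate cultures, though the paper states that the RNA-Seq was repeated independently. With the block, p-values set the difference within pairs against the spread left in these libraries after the replicate numbers are taken out. Each standard error is the size of the log2 fold change over the square root of F. CPM is relative to the TMM-scaled library size, and a pair value is the log2 CPM of SAL minus that of DMSO, each with 2 counts added as a prior. Variation was split into replicate, treatment and rest as sums of squares. Positions, exon lengths and overlaps come from GRCh37 with GENCODE v44, which is newer than the annotation used for counting.

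The members, lists and rules were chosen with earlier results of these data known. All members are named, with KLK3, the close paralogues of members and, of the calcium list, up to 5 up- and 5 down-regulated DEGs with the smallest adjusted p and the same direction in all pairs, of which 4 down-regulated existed. PECAM1 was not found under that symbol. The fit was also run on counts simulated from the replicate block fitted to these data. Such counts cannot show whether the block suits the real libraries. Alternatives were DESeq2 1.42.0 with the block, 2 other scalings, no block, 2 other filters, rRNA kept, mitochondrial genes removed, each replicate number left out, stricter calls and another exon length. A correction for GC content and length with the block, and for the family shares the longest transcript and leaving out each replicate number, were added after seeing the data. With 6 libraries, the number of libraries limits precision.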

Additional observations from a re-analysis of the deposited data

How the results depend on the processing

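No member changed direction under any alternative. With the replicate block, TRPM8 and TRPM4 kept their calls in all 11 other fits at an adjusted p under 0.05, ATP2B1 in 10 and STIM1 in 9, and TRPV6 gained a call in 5 and ORAI3 in 1 (without replicate 1, adjusted p = 0.0413), with ORAI1, ORAI2, STIM2 and CACNA1D never called. Without the replicate block, calls numbered 21 of all genes (654 with an unadjusted p under 0.05), 0 of the 10 members (1 with an unadjusted p under 0.05) and 0 of the 71 other calcium genes (3 with an unadjusted p under 0.05). DESeq2 with the block called 2240 genes and 13 of the calcium list. Leaving out each replicate number gave 1233 to 4398 DEGs, 2 to 5 members and 6 to 21 of the calcium list, lowest without replicate 3. In the fit of the report, an adjusted p under 0.01 left 3 members, without STIM1, and 12.5% of all genes tested. A minimum absolute log2 fold change of 1 left 1 member, TRPM8, and 5.26% of all genes tested. The correction for GC content and length called 26 of the calcium list, 18 up and 8 down, against 16 and 4. Calls over all genes rose with it too, to 14% up and 13.5% down, against 11.5% and 9.37%. The order of levels per kilobase kept 6 of 10 ranks with the longest transcript, which shortens some genes more than others. No scaling moved the median log2 fold change of all genes by more than 0.1. The balance of calls did depend on the scaling. With upper-quartile factors, 9.87% of all genes were up and 11.1% down, and the calcium list had 13 up and 5 down. ORAI3 does not reach 10 counts in every library and has no value under that filter. Other causes were not tested. The lowest counts of the members were 7 for ORAI3, 30 for ORAI2 and 35 for CACNA1D. For the family shares, 3 pairs cannot give an exact p below 0.25.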

Other observations

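The 7 tested release channels, which include the inositol trisphosphate receptors and ryanodine receptors, had log2 fold changes between -0.30 and 0.20 and edgeR adjusted p of at least 0.288. Of the 8 tested genes of mitochondrial uptake, 1 was up-regulated (12.5%, against 11.5% of all genes tested) and none down-regulated. It was SMDT1, a small subunit of the uniporter complex (log2 fold change 0.45 ± 0.10, SE, edgeR adjusted p = 0.00626), and it was picked out after its value was seen. The pore subunit MCU, also picked out afterwards, had a log2 fold change of -0.05 (edgeR adjusted p = 0.820).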
